A study of Homo sapiens with 48 samples.

Results

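The BCL2 family decides, at the outer membrane of the mitochondrion, whether a cell under stress lives or dies. Expression of 10 of its genes, chosen as listed symbols, was followed in THP-1, a human acute monocytic leukemia cell line. They are 10 of the 24462 gene symbols counted in the study. The genes BCL2, BCL2L1, MCL1 and BCL2A1 encode proteins that keep cells alive, and BMF, PMAIP1, BCL2L11, BID, BAX and BAK1 encode proteins that promote death. The genes were listed by family membership and not by a measured value, with earlier results of these data known.

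The study exposed THP-1 cells of passages 11 to 15 for 12 h to 1 of 12 chemicals and counted RNA-seq reads per gene in 48 libraries, 3 for each of 16 groups. The chemicals were lipopolysaccharide (LPS, a bacterial cell wall component that activates monocytes), the glucocorticoids dexamethasone and prednisolone, and mercuric chloride, a toxic metal salt. The others were tofacitinib (an inhibitor of Janus kinases), cyclosporine and tacrolimus (inhibitors of calcineurin), the antivirals aciclovir and ribavirin, the detergent sodium lauryl sulfate, the food preservative benzoic acid and genistein, an isoflavone of soy. Each was given at a concentration the labels call 1× CV90, with no value stated. The controls were 6 libraries with the vehicle dimethyl sulfoxide (DMSO) and 6 untreated libraries, each split into a series 1 and a series 2 of 3 libraries. The titles give 0.1%, 0.2% and 0.3% DMSO in vehicle series 1 and 0.4%, 0.5% and 0.6% in vehicle series 2, while the protocol gives 0.1%. Neither series is tied to a chemical in the labels, and separate cultures within a group are not stated. The p-values therefore measure library-to-library spread alone, and this may be technical. All groups share 1 cell line, so that no other donor or cell type is represented.

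In healthy cells the survival proteins bind and hold the death proteins. Stress signals raise or activate the BH3-only proteins, a branch of the family that includes BMF, PMAIP1 (also called NOXA), BCL2L11 (BIM) and BID, and these occupy the survival proteins or act on the effectors directly. The effectors BAX and BAK1 (BAK) then form pores that release cytochrome c, which starts the caspases. Monocytes and their leukemias are known to lean on MCL1 and on BCL2A1, whose transcription is known to respond to NF-kB.

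The 250 bases before the annotated start of the 3 genes with the largest rises are shown first, because these are the stretches in which regulators of a gene often bind. The sequences are from RefSeq on build GRCh38.p14. The counts were made on hg19 and carry no coordinates, so the windows are given for context. A window was found for 9 of the 10 genes, all but MCL1. Motifs were searched on both strands, and matches are in capitals: GGNNTTTCC (an NF-kB type site, present in 5.48% of 35116 windows of this length), GAANNTTC (heat shock element, 5.78%), TGACNNNGC (antioxidant response element, 10.91%), TGACGTCA (cyclic AMP response element, 1.65%) and TGATGNAA (C/EBP-ATF composite, 3.14%).
BCL2A1, chr15:79971197-79971446, minus strand: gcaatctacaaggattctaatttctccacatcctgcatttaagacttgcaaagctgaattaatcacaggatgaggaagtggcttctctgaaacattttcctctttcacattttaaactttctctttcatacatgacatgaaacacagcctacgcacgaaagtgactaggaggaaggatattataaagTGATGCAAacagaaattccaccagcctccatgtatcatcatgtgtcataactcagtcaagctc
BMF, chr15:40108880-40109129, minus strand: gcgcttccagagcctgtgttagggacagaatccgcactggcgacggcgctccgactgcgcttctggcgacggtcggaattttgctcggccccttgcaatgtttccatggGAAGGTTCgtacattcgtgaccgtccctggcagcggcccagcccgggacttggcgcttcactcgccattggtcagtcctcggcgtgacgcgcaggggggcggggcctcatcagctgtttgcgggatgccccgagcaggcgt
PMAIP1, chr18:59899746-59899995, plus strand: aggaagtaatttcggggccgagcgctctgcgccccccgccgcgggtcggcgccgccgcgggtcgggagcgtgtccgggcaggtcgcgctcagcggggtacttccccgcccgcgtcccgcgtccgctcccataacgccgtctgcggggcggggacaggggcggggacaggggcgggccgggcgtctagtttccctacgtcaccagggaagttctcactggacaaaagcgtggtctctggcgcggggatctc

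The BCL2A1 window held 1 match, TGATGCAA of the C/EBP-ATF type, which began 63 bases before the start. The first BMF window held GAAGGTTC of the heat shock type, 141 bases before the start. The PMAIP1 window, 72.8% G or C, held none of the 5 motifs, and the BCL2A1 window was 38.8% G or C. Among the other members with a window, BAX carried TGACCCGGC of the antioxidant type and BAK1 carried GAAACTTC of the heat shock type. A match here is a match of letters and not evidence of a bound factor.

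Libraries held 5952817 to 11496950 counts in all. The 15 markers fixed for a monocytic line all had counts, with a summed level of 3735 to 4299 CPM (counts scaled to a common library total) under mercuric chloride, 3780 to 4439 under LPS and 4008 to 5488 in vehicle. CTSG and ELANE, the most abundant, carry most of that sum. MPO and CD14 were low, with means of 3.26 and 2.46 CPM over the 48 libraries, and MPO was at 0 in 1 library. Other line markers were lower under mercuric chloride, such as CSF1R (7.33 to 9.32 CPM against 34.6 to 43.2 in vehicle) and CD33 (16.1 to 21.2 CPM against 43.8 to 56.3), which were picked after their values were seen. The T cell marker CD3E was at 0 in 48 of 48 libraries and CD3D in 38. The mercuric chloride libraries and dexamethasone replicate 3 stood apart. The mercuric chloride libraries had totals of 5952817 to 6958111 counts, a mean of 18748 symbols with counts against 16310 to 16945 in the other groups, 12.0% of counts in the 10 most abundant genes against 5.58% to 6.02%, and 26863 CPM of the nuclear RNA MALAT1 against 6743 to 12935. Dexamethasone replicate 3 had counts for 15527 symbols, the fewest of the 48 libraries, against 16561 and 16843 in the other dexamethasone libraries, and 6.40% of its counts in the 10 most abundant genes. Its member levels also differed from theirs, with MCL1 at 223 CPM against 379 and 396, BMF at 3.22 against 8.46 and 8.12, and BCL2L1 at 20.1 against 9.35 and 8.40. Levels below are in CPM after TMM scaling, as the mean ± SD of 3 libraries, or of all 6 vehicle libraries. They are compared between groups and not between genes, since they are not corrected for length.

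Of the 120 pairs of a member and a chemical, 10 were called, 7 higher and 3 lower. A gene was called when edgeR's quasi-likelihood F-test, adjusted by the Benjamini-Hochberg method over 15642 genes, gave p under 0.05 against the weaker of the comparisons with vehicle series 1 and vehicle series 2, with the same direction in both. Survival and death genes contributed 5 calls each. LPS changed 4 of the 10 genes, where 7.2% of all genes were called. Mercuric chloride changed 3 of 10 (background 41.9%), which for 10 genes is near the share among all genes. Dexamethasone changed 2 of 10 (background 8.57%) and genistein 1 of 10 (background 0.237%). Without dexamethasone replicate 3 the members called were 1 (BCL2) and the genes called 832 in place of 1340. The other 8 chemicals changed none by this test. Their backgrounds were 1.96% for prednisolone, 2.32% for tofacitinib, 0.831% for cyclosporine, 0.0575% for tacrolimus, 0.307% for sodium lauryl sulfate, 0.237% for aciclovir, 0.147% for ribavirin and 0.032% for benzoic acid. At an unadjusted p under 0.05, 2 members passed for tofacitinib (BAX and BMF), 1 for tacrolimus (BMF) and 0 for the other 6, and DESeq2 and limma-voom called 0 members in each of the 8. The median log2 fold change of the 10 members was 0.33 under mercuric chloride, 0.28 under sodium lauryl sulfate, where none was called, 0.21 under LPS, 0.18 under prednisolone and 0.16 under dexamethasone. It ran from -0.14 in cyclosporine to 0.16 in ribavirin over the other chemicals, and the medians of all tested genes lay between -0.01 and 0.02 in the 12 chemicals. All 12 chemicals share the vehicle libraries. Vehicle series 2 had the lowest mean of the 16 groups for BCL2L1, BCL2L11, BAK1 and BMF, but not for the other members. Its part in the member medians was not tested.

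**Figure D1:**
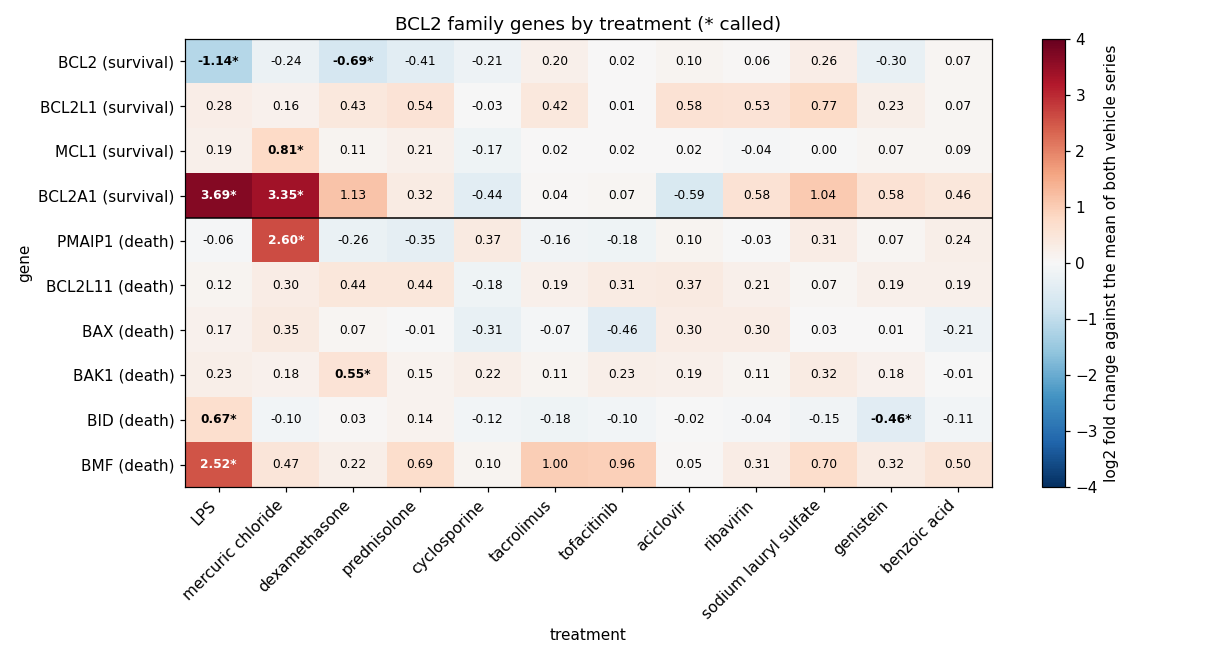
Log2 fold change of each BCL2 family gene (rows, survival genes above the line) in each chemical (columns) against the mean of both vehicle series, with called values in bold and starred. BCL2A1 and BMF reach 3.69 and 2.52 under LPS, and BCL2A1 and PMAIP1 reach 3.35 and 2.60 under mercuric chloride.

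BCL2A1, a survival gene inducible in blood cells, had the largest rise of the 10 members under LPS and rose to a similar level under mercuric chloride. It was nearly silent otherwise. The vehicle libraries held 1.33, 0.0888 and 0.646 CPM in series 1 and 0.971, 0.829 and 1.64 CPM in series 2, which is 1 to 14 counts per library. The LPS libraries held 9.8, 11 and 13.5 CPM and the mercuric chloride libraries 8.43, 10.9 and 7.84 CPM. Every library of these chemicals lay far above every vehicle library, and the LPS and mercuric chloride libraries overlapped each other. The log2 fold change was 3.69 (SE 0.34, edgeR adjusted p = 8.28e-08) with LPS and 3.35 (SE 0.36, edgeR adjusted p = 2.51e-07) with mercuric chloride. The low vehicle counts limit the size of these folds: they were 4.07 and 3.73 against vehicle series 1, and 3.31 and 2.97 against vehicle series 2. Dexamethasone libraries held 1.79, 2.27 and 1.71 CPM, just above the highest vehicle library, but the difference of 1.13 (SE 0.40) was not called (edgeR adjusted p = 0.442), though it passed in 1 contrast against both series (0.0286). The remaining group means ran from 0.576 CPM in aciclovir to 1.82 CPM in sodium lauryl sulfate, with each group overlapping its neighbour in that order.

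BCL2, the founding survival gene, moved the other way. It fell under LPS to 48.2, 43.3 and 57.1 CPM and under dexamethasone to 62.8, 66.2 and 74.3 CPM. The vehicle libraries held 134, 130 and 119 CPM in series 1 and 89, 97.9 and 93.8 CPM in series 2. Neither chemical overlapped any vehicle library, and LPS lay below dexamethasone in every library. The log2 fold change was -1.14 (SE 0.09, edgeR adjusted p = 2.16e-09) with LPS and -0.69 (SE 0.09, edgeR adjusted p = 0.00149) with dexamethasone. Prednisolone libraries (77.4 to 90.9 CPM) came next in the order and overlapped vehicle series 2, with a difference of -0.41 (SE 0.09) that was not called. Against both series together, in 1 contrast, prednisolone passed (edgeR adjusted p = 0.000952). The highest group means, 130.4 CPM in sodium lauryl sulfate to 125.6 CPM in tacrolimus, were at the level of the series 1 controls.

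MCL1, a short-lived survival protein that is made and destroyed within hours, rose under mercuric chloride. The libraries held 511, 557 and 553 CPM, against 281 to 335 CPM over the 6 vehicle libraries, and did not overlap with any other group. This was a log2 fold change of 0.81 (SE 0.09, edgeR adjusted p = 1.63e-07). Dexamethasone libraries were widely spread at 379, 396 and 223 CPM, the last being replicate 3. Elsewhere group means ran from 275 CPM in cyclosporine to 357 CPM in prednisolone, and neighbours in the order overlapped.

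BCL2L1, which encodes the survival protein BCL-xL, was called in no chemical. Its group means ran from 7.36 ± 1.02 CPM in vehicle series 2 to 16.03 ± 0.36 CPM in sodium lauryl sulfate, whose libraries (15.7 to 16.4 CPM) lay above those of aciclovir (13.9 to 14.3). The sodium lauryl sulfate difference was 0.77 (SE 0.20), made of 0.41 against vehicle series 1 and 1.12 against series 2, and passed in 1 contrast against both (edgeR adjusted p = 0.0178). Dexamethasone ranged from 8.4 to 20.1 CPM. The antisense gene ABALON overlaps BCL2L1 and is counted too, and whether the counting used strand is not given, so reads from the pair cannot be told apart. In the annotation of GRCh38, GGNBP1 overlaps BAK1 on the opposite strand in the same way, while ADAMTSL4-AS1 overlaps MCL1 on the same strand, where strand would not separate their reads.

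**Figure D2:**
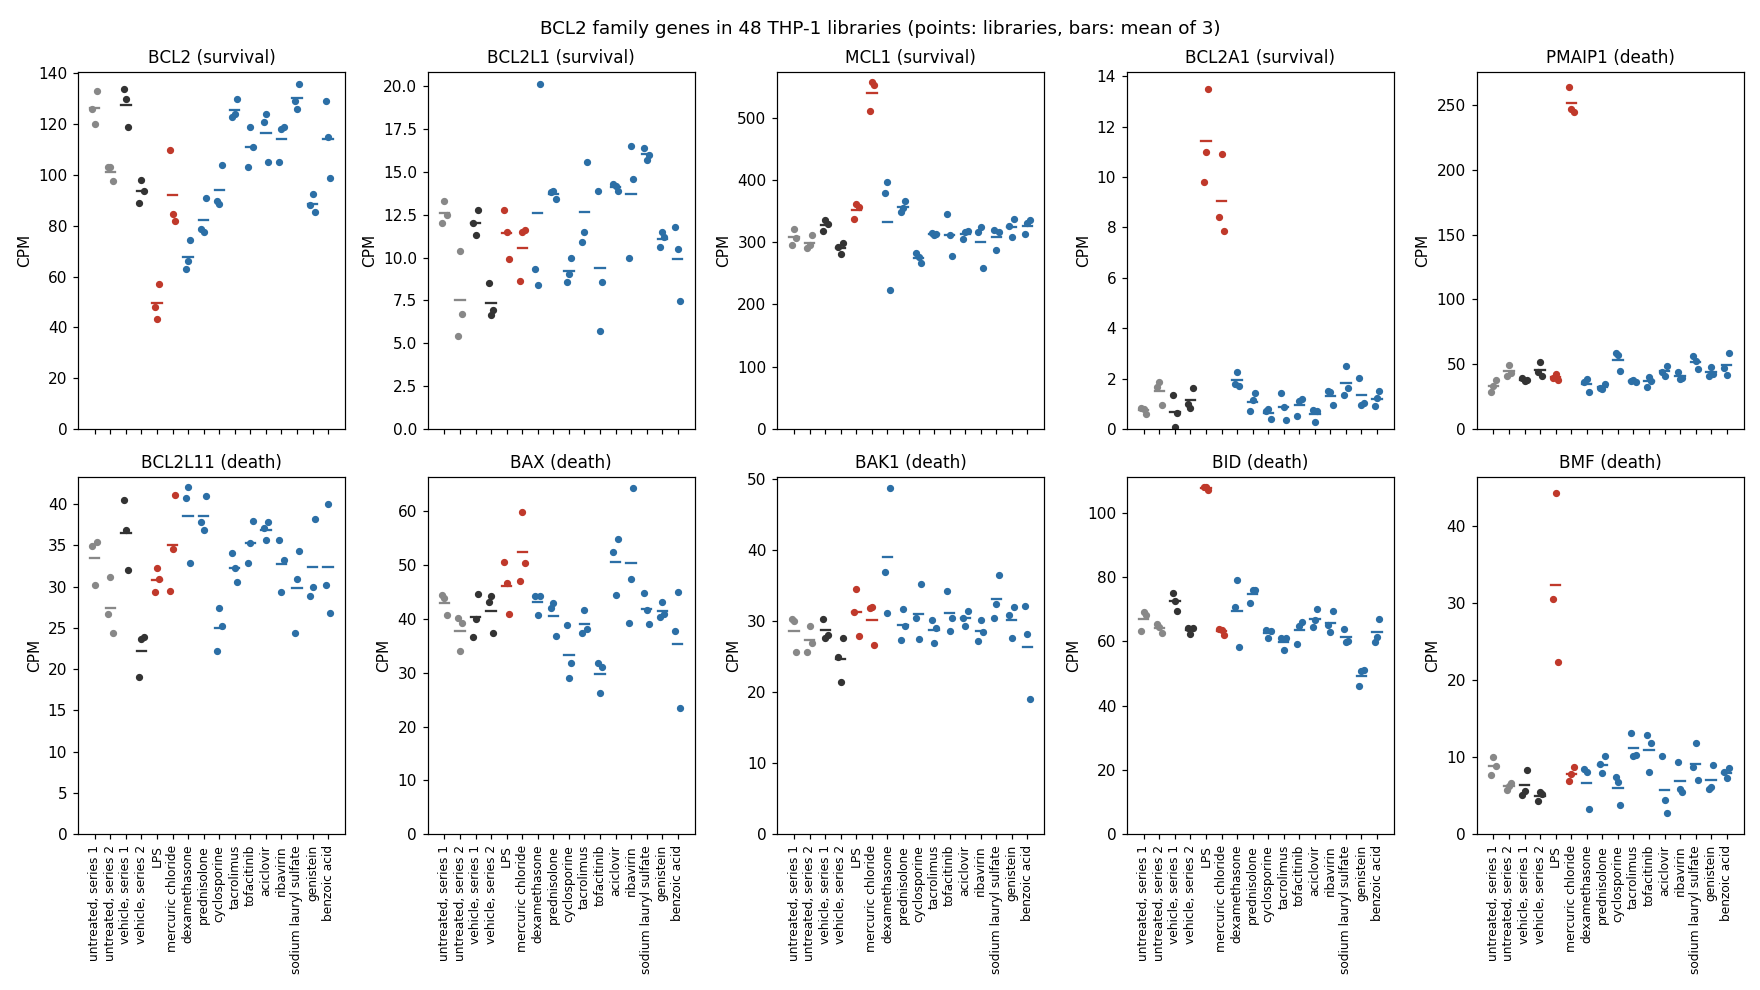
Level of each BCL2 family gene in CPM (y axis, linear, from 0) in every library (points) and the mean of 3 libraries (bars) by group (x axis), with untreated in grey, vehicle in black, LPS and mercuric chloride in red and other chemicals in blue. BCL2A1 is at 7.84 to 13.5 CPM in the red groups and at most 2.51 elsewhere, and PMAIP1 is at 245 to 264 CPM in mercuric chloride and at most 58.4 elsewhere.

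Among the BH3-only genes, BMF rose under LPS. BMF is known as a sensor of lost attachment and of cytoskeletal stress. The LPS libraries held 30.6, 44.3 and 22.4 CPM, a wide spread, while the vehicle libraries held 5.1, 5.68 and 8.31 CPM in series 1 and 4.32, 5.45 and 5.17 CPM in series 2. No library of any other chemical reached the lowest LPS library. BMF thus rose by 2.52 on the log2 scale (SE 0.24, edgeR adjusted p = 3.74e-08). BMF was called in no other chemical. The largest of the other differences, all against the same vehicle libraries, were 1.00 (SE 0.26) in tacrolimus, with libraries of 10.2 to 13.1 CPM, and 0.96 (SE 0.26) in tofacitinib, with 8.04 to 12.9 CPM, and neither passed (edgeR adjusted p = 1 and 0.254), though both did in 1 contrast against both series (0.0186 and 0.0102). The untreated libraries, kept without DMSO, held 7.73 to 9.97 CPM in series 1 and 5.70 to 6.71 CPM in series 2.

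PMAIP1, a BH3-only gene known to respond to the integrated stress response and whose product binds MCL1, rose under mercuric chloride. Its libraries held 264, 247 and 245 CPM, against 39, 36.7 and 37.8 CPM in vehicle series 1 and 44.3, 51.6 and 40.6 CPM in vehicle series 2. The log2 fold change was 2.60 (SE 0.10, edgeR adjusted p = 2.99e-22), the smallest adjusted p of any member here, with values of 2.74 against vehicle series 1 and 2.47 against series 2. The other 11 chemicals ran from 32.6 ± 2.1 CPM in prednisolone to 53.5 ± 7.5 CPM in cyclosporine and were not called. In 1 contrast against both series, cyclosporine passed as higher (0.37, edgeR adjusted p = 0.0144) and prednisolone as lower (-0.35, edgeR adjusted p = 0.0197). LPS, which raised BMF, left PMAIP1 at 37.5 to 42.5 CPM, with a difference of -0.06 (95% interval -0.27 to 0.15).

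BID, whose product carries the signal of death receptors to the mitochondrion after cleavage by caspase-8, rose under LPS and fell under genistein. The LPS libraries held 108, 108 and 107 CPM, and the vehicle libraries 75.2, 72.7 and 69.4 CPM in series 1 and 64.1, 62.3 and 64.3 CPM in series 2. LPS lay above every other library of the study. This gave a log2 fold change of 0.67 (SE 0.07, edgeR adjusted p = 3.24e-07). Genistein libraries held 46.1, 50.7 and 51.2 CPM, below every other group, with a log2 fold change of -0.46 (SE 0.07, edgeR adjusted p = 0.0315). The genistein call ended in 8 of 9 fits that left out 1 library (-0.41 to -0.49), with no filter on low counts (edgeR adjusted p = 0.226) and at equal depth (edgeR adjusted p = 0.117).

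BCL2L11, a BH3-only gene known as a glucocorticoid target in lymphoid cells, was called in no chemical. Its highest group means were 38.6 ± 5.0 CPM in dexamethasone and 38.5 ± 2.2 CPM in prednisolone. Vehicle series 1 held 36.4 ± 4.2 CPM and vehicle series 2 held 22.2 ± 2.8 CPM, so the glucocorticoid difference was 0.44 on average, 0.08 against series 1 and 0.80 against series 2. In 1 contrast against both series it passed (edgeR adjusted p = 0.00408 for dexamethasone and 0.00724 for prednisolone). The sign of the BCL2L11 difference turned between the vehicle series in 9 of 12 chemicals.

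Of the effectors, BAK1 rose under dexamethasone to 37, 31.2 and 48.8 CPM, against 30.3, 27.7 and 28.1 CPM in vehicle series 1 and 24.9, 21.4 and 27.6 CPM in series 2. On the log2 scale BAK1 rose by 0.55 (SE 0.12, edgeR adjusted p = 0.0337). The call rested on replicate 3: without it the change was 0.35 (edgeR adjusted p = 0.534), and it was also lost when only the dexamethasone and vehicle groups entered the fit (edgeR adjusted p = 0.217) and without any 1 of the vehicle series 1 libraries. BAX held 47.1 to 59.9 CPM under mercuric chloride against 36.7 to 44.6 CPM in vehicle, without overlap. Its difference of 0.35 (SE 0.13) was not called (edgeR adjusted p = 0.077), but passed with RLE factors (0.43, adjusted p = 0.0285), upper-quartile factors (0.39, adjusted p = 0.0479) and DESeq2 (0.43, adjusted p = 0.0255), and also with only the groups compared (0.00381), in 1 contrast against both series (0.0195) and against series 1 alone (0.0328). BAX was lowest in tofacitinib, at 26.3 to 31.8 CPM, and the difference of -0.46 (SE 0.13) was not called (edgeR adjusted p = 0.143), but passed in 1 contrast against both series (adjusted p = 0.0157), with only the groups compared in the fit (0.0155) and against series 2 alone (0.0207).

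Other levels moved with these groups. Under mercuric chloride, beside the high MALAT1 level above, the summed level of 5 erythroid markers was 14.2 to 22.1 CPM against 0 to 0.43 in vehicle, and that of 5 fibroblast markers was 29.6 to 32.2 CPM against 0 to 1.14. HBA2 (12.5 to 16.3 CPM) and COL1A1 (29.6 to 31.6 CPM) made up most of these sums, while HBG1, COL3A1 and LUM were at 0 in its 3 libraries. Under LPS the fibroblast sum was 3.53 to 6.73 CPM, mostly DCN (2.32 to 4.98 CPM), with COL1A2 at 0. The part of these differences in the member results was not tested. A difference in CPM in a culture cannot tell more expressing cells from more RNA per cell.

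The rest of the apoptosis pathway was read from 5 gene lists. Genes that changed by at least 1 on the log2 scale are given with their statistics, at most 3 per list and chemical, and others are named to complete a count, after their values were seen. Their counts are read against the share of all genes called, 41.9% under mercuric chloride, 7.2% under LPS and 8.57% under dexamethasone. Of 14 other BCL2 family genes, 11 could be tested. Under mercuric chloride 6 of 11 were called higher and 0 lower, a total share near that of all genes, led by BCL2L15 (14.1 ± 4.3 CPM against 0.492 ± 0.21 in vehicle, log2 4.83, SE 0.48, edgeR adjusted p = 2.76e-08) and by BBC3. The low vehicle level of BCL2L15 limits the size of its fold. This gene may have passed the filter on low counts through mercuric chloride alone. BBC3 encodes PUMA, a pro-apoptotic BH3-only protein, and it reached 179 ± 17 CPM against 19.8 ± 3.0 (log2 3.19, SE 0.13, edgeR adjusted p = 5.16e-21). BNIP3L, a mitophagy receptor, rose by 1.48 (SE 0.14, edgeR adjusted p = 3.37e-09). Under LPS the list had 1 called higher, BBC3, at 42.2 ± 4.2 CPM (log2 1.101, SE 0.13, edgeR adjusted p = 6.4e-06), and 1 lower, BIK (-0.60). Dexamethasone raised 3 of 11, which were BIK, BBC3 and BNIP3L by 0.71, 0.69 and 0.61, with BNIP3L widely spread (38.54 ± 15.45 CPM). Tofacitinib raised BBC3 and BNIP3L. The list median was 0.26 under mercuric chloride and 0.00 under LPS.

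Of 13 genes for mitochondrial release and caspases, all tested, mercuric chloride raised 3 and lowered 3, again near the share of all genes. Among those raised, the initiator caspase gene CASP10 rose by 1.11 (SE 0.21, edgeR adjusted p = 0.000388) and cytochrome c (CYCS) was also higher, while APAF1, AIFM1 and CASP2 fell. CYCS fell under dexamethasone (-0.55) and tofacitinib (-0.52). Its fall under tacrolimus (-0.33) passed narrowly (edgeR adjusted p = 0.0494). The list median was 0.01 under mercuric chloride and 0.03 under LPS.

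Of 7 inhibitor of apoptosis genes, 6 were tested. BIRC3, an NF-kB target that encodes a ubiquitin ligase, rose with LPS to 14.9 ± 2.9 CPM from 0.900 ± 0.60 (log2 4.02, SE 0.40, edgeR adjusted p = 9.49e-08). With dexamethasone BIRC3 stayed low, at 2.98 ± 0.94 CPM, and its rise of 1.71 (SE 0.44) passed narrowly (edgeR adjusted p = 0.0475). BIRC2 rose with dexamethasone (0.57, widely spread at 91.0 ± 18.9 CPM) and prednisolone (0.48). Mercuric chloride raised XIAP (0.78) and lowered BIRC2 (-0.57) and NAIP (-0.95). Of 12 death receptor genes, 11 were tested. LPS raised CFLAR, which encodes the caspase-8 inhibitor FLIP, by 0.72 (edgeR adjusted p = 6.26e-08). Mercuric chloride raised TNFRSF10D, a decoy receptor for the death ligand TRAIL, by 2.46 (SE 0.16, edgeR adjusted p = 2.58e-14) and lowered TNFRSF1A, FADD and CFLAR. Both glucocorticoids lowered TNFSF10, which encodes TRAIL, by values of -0.94 and -0.80.

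Of 15 regulators of the members, all tested, mercuric chloride raised 9 and lowered 1, where 41.9% of all genes were called in either direction. ATF3, a stress-induced transcription factor, rose from 3.67 ± 1.5 CPM in vehicle to 565 ± 24 CPM (log2 7.33, SE 0.21, edgeR adjusted p = 3.43e-25). TRIM17, counted among the 9, was called at 1.79 ± 0.34 CPM, from so few vehicle counts (0.0296 CPM) that no fold is given. It too may have passed the filter on low counts through mercuric chloride alone. The stress factors ATF4, DDIT3 and TRIB3 rose under mercuric chloride, tofacitinib and cyclosporine, with ATF4 at 1.01 (SE 0.12, edgeR adjusted p = 0.0105) in tofacitinib and 1.37 (SE 0.12, edgeR adjusted p = 1.46e-05) in cyclosporine. PMAIP1 was called in the first of these chemicals and not in the other 2, where its differences were -0.18 (SE 0.11) and 0.37 (SE 0.10). The cyclosporine difference did pass in 1 contrast against both series (edgeR adjusted p = 0.0144) and against series 1 alone (edgeR adjusted p = 0.00149). ATF4 was also higher in control series 2 than in series 1, by 0.79 (SE 0.10, edgeR adjusted p = 3.22e-08), so its changes average unlike baselines. DDIT3 (0.24) and TRIB3 (-0.26) differed less between the series. TRIB3 rose by 1.17 (SE 0.09, edgeR adjusted p = 5.55e-08) in sodium lauryl sulfate. LPS raised NFKB1, a subunit of NF-kB, by 1.57 (SE 0.08, edgeR adjusted p = 3.16e-15) and REL by 0.60, and NFKB1 fell under mercuric chloride (-1.13). Dexamethasone raised 4 of 15, with FOXO1, a transcription factor known to act on BCL2L11, at 1.45 (SE 0.24, edgeR adjusted p = 5e-04).

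The glucocorticoids were also set against each other, as 1 pair of related compounds at 12 h, each at its own 1× CV90 concentration, so that the doses may differ. None of the 10 members was called between them, where 9.23% of all genes (1444) were. Omitting dexamethasone replicate 3 lowered the 1444 genes to 638, omitting dexamethasone replicate 2 raised them to 2346, and omitting prednisolone replicate 1 or 3 left 733 or 685. Without dexamethasone replicate 2, BAK1 was called (0.54, edgeR adjusted p = 0.01). At an unadjusted p under 0.05 there were 2, DESeq2 called 1 (BAK1) and limma-voom 0. BCL2 was lower with dexamethasone (67.8 ± 5.9 CPM) than with prednisolone (82.3 ± 7.5 CPM) without overlap, by -0.28 (95% interval -0.49 to -0.07, edgeR adjusted p = 0.0727). BAK1 differed by 0.40 (0.13 to 0.68, edgeR adjusted p = 0.055), and BCL2A1 by 0.81 (-0.11 to 1.73). The difference in BCL2L11 was 0.00 (-0.28 to 0.28).

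The control series differed from each other, while the vehicle did not separate from untreated cells. Between series 2 and series 1, over 6 libraries each, 30.1% of all genes and 4 of the 10 members were called. BCL2 (97.4 ± 5.4 against 127 ± 6.5 CPM) was lower by -0.38 (SE 0.07, edgeR adjusted p = 3.5e-05), BCL2L1 (7.45 ± 1.8 against 12.3 ± 0.70 CPM) by -0.72 (SE 0.18, edgeR adjusted p = 0.00136) and BCL2L11 (24.8 ± 4.0 against 35.0 ± 3.6 CPM) by -0.50 (SE 0.10, edgeR adjusted p = 0.000103). PMAIP1 (45.1 ± 4.5 against 35.5 ± 3.8 CPM) was higher by 0.35 (SE 0.09, edgeR adjusted p = 0.00136). BCL2 and BCL2L1 passed in the vehicle libraries alone and in the untreated libraries alone. PMAIP1 passed in the untreated libraries (0.43) but not in the vehicle libraries (0.27, edgeR adjusted p = 0.116), and BCL2L11 passed in the vehicle libraries (-0.72) but not in the untreated (-0.29, edgeR adjusted p = 0.184). Tested directly, the series difference in vehicle minus that in untreated libraries was called for 0 of the 10 members. It was -0.16 for PMAIP1 (95% interval -0.50 to 0.19) and -0.43 for BCL2L11 (-0.83 to -0.03, edgeR unadjusted p = 0.0361). Vehicle against untreated gave 0 members and 0% of all genes called by edgeR, with 0 members and 463 genes at an unadjusted p under 0.05, and DESeq2 and limma-voom called 0 genes. With no filter on low counts edgeR called 2 genes, and with only the groups compared in the fit it called 2. The largest vehicle difference among the members was -0.40 for BMF (95% interval -0.86 to 0.06).

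Because a chemical is compared with both series, a member whose direction turns between them cannot be called, by rule. The part of the series difference in the other uncalled pairs was not tested. In 43 of the 120 pairs the direction turned between vehicle series 1 and series 2. The 10 called pairs had the same direction by rule, and the 4 largest exceeded 2 on the log2 scale against each series.

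**Figure D3:**
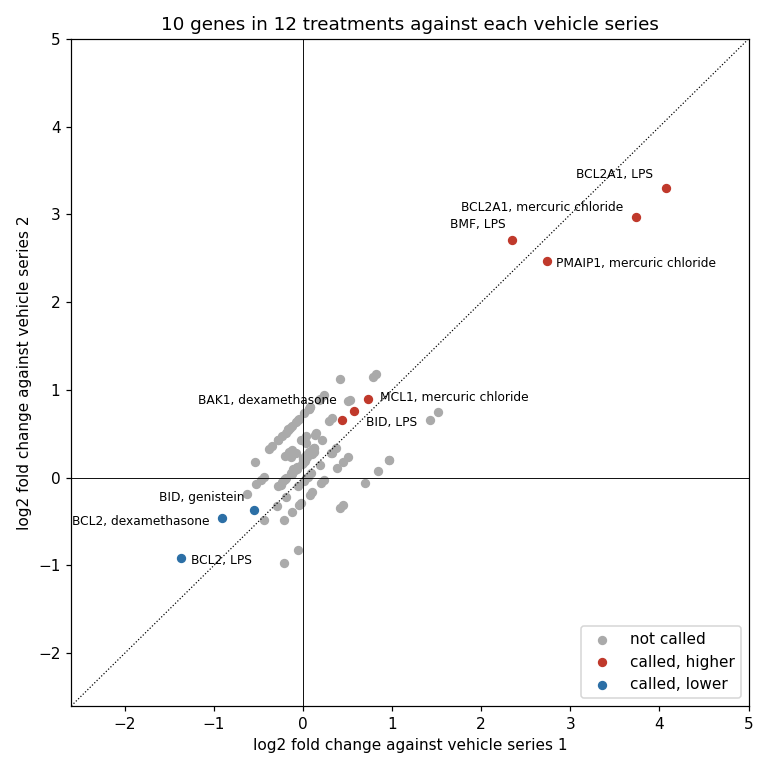
Log2 fold change of the 10 genes in the 12 chemicals against vehicle series 1 (x axis) and against vehicle series 2 (y axis), 1 point per gene and chemical, with called pairs in red (higher) and blue (lower) and a dotted line where both are equal. The uncalled points reach 1.51 on the x axis (BCL2A1 in dexamethasone, 0.75 on the y axis) and 1.18 on the y axis (BMF in tacrolimus, 0.82 on the x axis). Of the 120 points, 43 have opposite signs on the axes.

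Survival and death genes were last set against each other within each library, as the mean change in log2(CPM + 1) of the 4 survival genes and of the 6 death genes from the mean of the vehicle series. Under mercuric chloride both means were above vehicle, by 0.78 and 0.62, and the survival mean exceeded the death mean by 0.17 ± 0.05, with 0.11 to 0.20 over its libraries. Under LPS both were above vehicle, by 0.51 and 0.57, and the difference was -0.06 ± 0.20 with libraries on either side of 0. The survival excess was highest in sodium lauryl sulfate, at 0.19 ± 0.04, and lowest in cyclosporine, at -0.15 ± 0.10. The vehicle libraries themselves ran from -0.141 to 0.167, which the mercuric chloride libraries overlapped and the sodium lauryl sulfate libraries (0.170 to 0.235) just passed. The score rests on few genes: without BCL2A1 the difference was -0.799 in LPS and -0.385 in mercuric chloride. No test is given for this score.

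**Figure D4:**
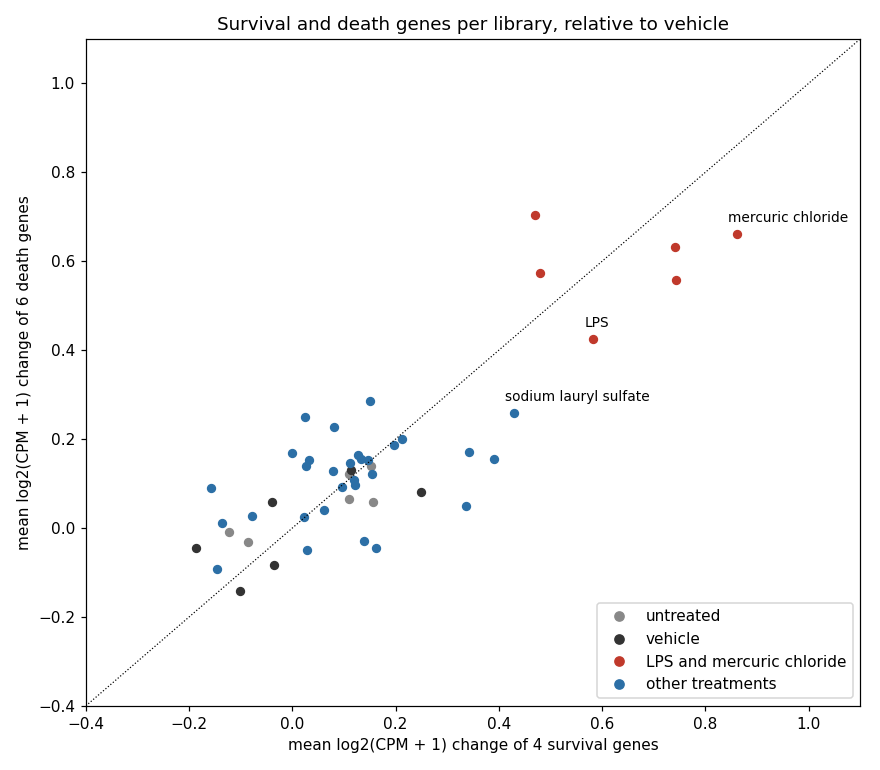
Mean change in log2(CPM + 1) from vehicle of the 4 survival genes (x axis) and of the 6 death genes (y axis) in each library (points, coloured by kind of group), with a dotted line where both are equal. LPS and mercuric chloride libraries lie at 0.47 to 0.86 on the survival axis and 0.42 to 0.70 on the death axis, and the others nearer to 0.

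The genes whose group means followed each member most closely were found by Pearson's r of log2(CPM + 1) over the 16 groups, among 10963 or 10964 genes with a mean of at least 5 CPM. The groups share controls, depth and the strong mercuric chloride response, so these values describe likeness and carry no test. BCL2A1 was most like CCL3 (0.96), a chemokine gene, LACTB (0.96) and RELB (0.95), an NF-kB subunit gene, and without mercuric chloride IGFBP3 (0.94) and CCL3 (0.94) were among the closest. BMF was most like CD74, MTF1 and HLA-B (0.91 each), and without mercuric chloride KLHL5 (0.93), NBPF9 (0.93) and CCL5 (0.92). For PMAIP1 the closest were SECISBP2 (0.98), WBP5 (0.97) and KCNQ1OT1 (0.96). Without mercuric chloride r fell to 0.84 for LRRC42, 0.79 for TCTN2 and 0.78 for ZBTB8A. MCL1 followed HIST2H2AA4 (0.97) and CSRNP1 (0.96), among others, and without mercuric chloride ELL (0.94), RAP1A (0.94) and LIMS3 (0.91). BCL2 was most like WDR49 (0.92), SOX12 (0.91) and SERPINI2 (0.91), and SERPINI2 and WDR49 still led without mercuric chloride (0.95 each), ahead of RNH1 (0.93). For BID the closest were OLIG2 (0.89), SLAMF8 (0.89) and TNIP1 (0.88), and without mercuric chloride MGLL (0.91), GTF2IP1 (0.89) and OLIG2 (0.89). BCL2L1 followed ZNF800 (0.92), TIMM17B (0.91) and INO80B-WBP1 (0.89), and without mercuric chloride DOC2A (0.93), PIP5K1C (0.92) and ALCAM (0.92). BCL2L11 followed MAP3K13 (0.91), MICALL2 (0.91) and WDR45B (0.89), and without mercuric chloride HMHA1 (0.97), ULK3 (0.95) and MICALL2 (0.94). BAX was closest to YWHAH (0.88), PSMD3 (0.88) and CHCHD5 (0.86), and without mercuric chloride to MCM4 (0.89), PSMD3 (0.89) and RBBP4 (0.86). BAK1 was closest to RAB6A (0.88), ARRDC3 (0.86) and ZNF703 (0.85), and without mercuric chloride to RAB6A (0.91), TMEM185A (0.88) and ARRDC3 (0.86).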

How the data were processed

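Lexogen Quant-Seq libraries were prepared from 500 ng of THP-1 RNA, per the labels' protocols. The authors deposited raw read counts, 1 whole number per gene symbol and library. Bowtie2, bedtools and build hg19 (GRCh37) are named in the submitters' processing notes, while tool versions, annotation and strand use were not given in the sources used here. Each file has 25737 rows. Of its symbols, 286 stood on several rows (1561 rows) and were summed, which left 24462. Each of the 10 members was on 1 row and passed the filter on low counts. BCL2A1 had at least 10 counts in 28 of 48 libraries and in 2 of 6 vehicle libraries.

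Counts were tested with edgeR 4.0.16 (R 4.3.3), using TMM scaling, filterByExpr (15642 genes kept) and 1 quasi-likelihood fit of 48 libraries in 16 groups, with a biological coefficient of variation of 0.122 and 32 residual degrees of freedom. Each chemical was tested against vehicle series 1 and series 2. The larger p was kept where both had 1 direction and p was set to 1 elsewhere. Adjustment over the tested genes followed Benjamini and Hochberg, and a gene was called under 0.05. The log2 fold change is the mean over both series, and SE is its size over the square root of F. Alternatives used limma 3.58.1 (voom), DESeq2 1.42.0 and the settings in the closing section, with no setting added after the data were seen. The code was tested on simulated data.

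The members and gene lists were chosen with earlier results of these data known. The members are named wherever called. Genes of the other lists are named at a called change of at least 1 on the log2 scale, at most 3 per list and chemical, with additions said in the text. The 3 genes most like each member were taken by correlation of group means. A few genes that these rules select are not reported here. Within groups, 48 pairs of libraries differed by more than sampling noise (chi-square over degrees of freedom 2.13 to 43.1). Each library was entered as 1 replicate. This check cannot tell separate cultures from separate preparations of 1 culture.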

Additional observations from a re-analysis of the deposited data

Results flagged for a closer look

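BMF in the 6 vehicle libraries had 1 value that stood apart: vehicle series 1 replicate 3 held 8.31 CPM, while the other 5 held 4.32 to 5.68 CPM. The gap to the next library was above Dixon's critical share of the range for 6 libraries. It was the 1 flag among 20 groups of 6 examined (10 genes in vehicle and in untreated libraries), and chance flags about 1 in 20. Without this library the BMF change under LPS stayed called (2.65, edgeR adjusted p = 2.52e-07).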

How the results depend on the processing

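The 4 members called under LPS stayed called in every refit. No called member changed direction, while uncalled members often did between the vehicle series. Of 309 refits of called members, 292 kept the call and 17 lost it, all in BAK1 with dexamethasone, BID with genistein and, in part of the control libraries, PMAIP1 and BCL2L11. Counts of called members moved most with the control used. Against vehicle series 1 alone they were 3 for dexamethasone, 1 for prednisolone, 6 for mercuric chloride, 3 for cyclosporine and 2 for genistein. Against series 2 alone they were 6 for LPS (with MCL1, adjusted p = 0.0495, and BCL2L11, 0.0106), 4 for mercuric chloride, 5 for dexamethasone, 6 for prednisolone, 3 for tofacitinib, 4 for tacrolimus, 5 for sodium lauryl sulfate, 3 for aciclovir, 3 for ribavirin, 2 for genistein and 1 for benzoic acid. In 1 contrast against both series they were 4 for dexamethasone, 3 for prednisolone, 6 for mercuric chloride, 2 for tofacitinib, 1 for cyclosporine, 1 for tacrolimus, 1 for sodium lauryl sulfate, 2 for aciclovir and 2 for genistein. With only the groups compared in the fit, dexamethasone had 1 and tofacitinib 2. Over all genes, this fit called 511 for dexamethasone in place of 1340, 446 for genistein in place of 37 and 6 between the glucocorticoids in place of 1444. Leaving out 1 library called 832 to 1815 genes for dexamethasone, 6 to 23 for genistein and 638 to 2346 between the glucocorticoids. Genistein had 0 without the filter and 0 at equal depth. Between the glucocorticoids there was 1 with DESeq2 (BAK1), 1 at equal depth and 1 without the mercuric chloride libraries (both BCL2). Leaving out 1 library gave 1 to 2 calls for dexamethasone, 0 to 1 for genistein, 0 to 1 between the glucocorticoids and 4 to 5 in the control series, and did not change the other counts. The cause of these moves was not tested.

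The survival minus death difference moved by more than 1 SD in some settings. With a pseudocount of 0.25 it was 0.287 in sodium lauryl sulfate, 0.085 in benzoic acid and 0.336 in mercuric chloride. With a pseudocount of 5 it was 0.039 in tacrolimus, 0.096 in sodium lauryl sulfate, -0.276 in LPS and -0.086 in mercuric chloride. Without BCL2L11 and BMF it was 0.125 in tofacitinib, 0.217 in tacrolimus, 0.134 in prednisolone, 0.263 in sodium lauryl sulfate, 0.151 in benzoic acid, 0.264 in LPS and 0.034 in mercuric chloride. Without BCL2A1 it was 0.070 in tacrolimus, 0.126 in sodium lauryl sulfate, 0.079 in aciclovir, -0.012 in benzoic acid, -0.799 in LPS and -0.385 in mercuric chloride. Leaving out 1 library gave 0.162 to 0.230 in sodium lauryl sulfate and -0.016 to 0.052 in tacrolimus.

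Replicate numbers do not pair the libraries: over 360 same-numbered pairs the correlation of deviations from the group means was -0.147 to 0.215 (median -0.003). With the replicate number as a block the counts were unchanged, at 4 for LPS, 3 for mercuric chloride, 2 for dexamethasone, 1 for genistein and 4 for the control series. Depth limits BCL2A1 most, with 1 to 14 counts per vehicle library.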
